A study of Homo sapiens with 2 samples.

Results

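The 9 genes described here, BNIP3, PFKFB4, DDIT4, STC1, SLC16A3, BHLHE40, ANGPTL4, PPFIA4 and FUT11, are known to respond to low oxygen or to metabolic stress. They were chosen by symbol from the 425 genes in the authors' deposited table of differences between a pair of cultures, with their values already known, and all 9 have a row in it. Each culture was of HES2, an established human embryonic stem cell line: the PB control expressed PB, a name the labels do not spell out, and the other culture expressed PB-Tfcp2l1ΔCP2. Going by the label, this is Tfcp2l1, a transcription factor of the pluripotency network, without a part called CP2. Both were grown for 2 passages in a basal medium with 10% KSR, to which Activin A and FGF2 were added at 10 ng/ml each. The labels do not say whether either culture was a clone or a pool. Total RNA gave 1 library per culture, so there was no replicate check, and each difference below describes these libraries only. Because the genes were chosen on this same contrast, no test is given.

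Cells short of oxygen stabilise the hypoxia-inducible factors (HIF), dimeric transcription factors that bind a short core motif near their target genes. The known targets raise glycolysis and lactate export, remove mitochondria by mitophagy, restrain the growth kinase complex mTORC1, and send secreted factors to neighbouring cells. Several of these genes also answer to other signals, such as glucocorticoids, lipid-sensing nuclear receptors or the clock, and human embryonic stem cells are known to rely on glycolysis.

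Promoter sequence was examined first, because the genes were selected by a shared response and the HIF core motif can be looked for in each. The sequences are from RefSeq (GRCh38.p14), which had entries for 8 of the 9 genes, FUT11 under its current symbol POFUT4, and none for STC1. The search covered the 250 bases before each annotated start for ACGTG and for GCGTG, on both strands. It also covered CACGTG, a site type that BHLHE40 is known to bind; every CACGTG holds ACGTG on both strands. The 5 sequences below are shown because they span the range found, from the densest cluster of motifs to a promoter with only a GCGTG. They run 5′ to 3′ along each gene and end at the base before the start, with ACGTG and GCGTG on either strand in capitals. BNIP3 is at chr10:131981924-131982173 on the minus strand, DDIT4 at chr10:72273674-72273923 on the plus strand, BHLHE40 at chr3:4979187-4979436 on the plus strand, FUT11 at chr10:73772026-73772275 on the plus strand and PFKFB4 at chr3:48556804-48557053 on the minus strand.
BNIP3: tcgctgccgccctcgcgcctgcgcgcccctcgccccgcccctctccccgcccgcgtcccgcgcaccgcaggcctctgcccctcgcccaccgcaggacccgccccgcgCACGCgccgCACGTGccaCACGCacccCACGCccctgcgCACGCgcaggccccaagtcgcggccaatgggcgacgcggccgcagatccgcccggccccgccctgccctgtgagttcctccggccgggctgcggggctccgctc
DDIT4: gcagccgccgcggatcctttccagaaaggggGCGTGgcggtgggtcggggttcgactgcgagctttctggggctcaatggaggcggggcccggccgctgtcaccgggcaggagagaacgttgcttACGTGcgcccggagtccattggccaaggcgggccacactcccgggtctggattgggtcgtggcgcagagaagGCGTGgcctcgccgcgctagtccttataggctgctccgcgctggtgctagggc
BHLHE40: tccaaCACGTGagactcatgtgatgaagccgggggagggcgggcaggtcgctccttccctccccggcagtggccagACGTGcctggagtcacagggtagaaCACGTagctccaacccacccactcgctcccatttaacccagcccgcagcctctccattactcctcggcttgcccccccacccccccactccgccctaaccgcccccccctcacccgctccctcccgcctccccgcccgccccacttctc
FUT11: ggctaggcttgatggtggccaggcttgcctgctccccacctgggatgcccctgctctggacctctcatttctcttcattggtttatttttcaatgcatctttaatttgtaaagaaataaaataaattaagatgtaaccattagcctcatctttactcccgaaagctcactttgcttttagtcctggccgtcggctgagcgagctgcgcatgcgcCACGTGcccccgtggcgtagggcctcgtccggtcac
PFKFB4: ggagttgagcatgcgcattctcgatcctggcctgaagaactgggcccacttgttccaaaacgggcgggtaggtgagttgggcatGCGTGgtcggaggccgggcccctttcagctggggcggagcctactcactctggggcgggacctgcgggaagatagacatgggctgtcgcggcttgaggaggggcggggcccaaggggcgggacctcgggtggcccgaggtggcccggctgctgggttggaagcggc

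At least 1 of ACGTG and GCGTG was found for all 8 genes with a sequence, against 47.4% of the 27305 genes in the promoter set. ACGTG was found for 7 of the 8, all but PFKFB4, against 21.7% of all genes. GCGTG was found for 5 of the 8, against 36.2% of all genes. CACGTG was found for 4 of the 8 (BNIP3, BHLHE40, PPFIA4 and FUT11), against 7.73% of all genes. The GC content of these windows ran from 51.2% in FUT11, below the median of 58.0% over all windows, to 83.2% in a window of SLC16A3, and FUT11 alone was under 60%. Among genes with a window of 60% GC or more, 24.9% had ACGTG, 53.2% GCGTG and 63.2% either of them, and 10.3% had CACGTG. The choice of known hypoxia genes bears on these counts, and a match of letters is not evidence of binding.

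The motifs lay at different distances from the start. BNIP3 had 1 CACGTG, beginning 134 bases before the start, and 4 GCGTG between 143 and 100 bases before it. BHLHE40 had a CACGTG at 245 bases and further ACGTG at 174 and 149 bases. In FUT11, the gene with the smallest difference between the libraries, the CACGTG was 36 bases before the start. PFKFB4 had a GCGTG at 166 bases and DDIT4 an ACGTG at 125 bases, between GCGTG at 219 and 53 bases. ANGPTL4 had 1 ACGTG, at 234 bases. SLC16A3 has 5 annotated starts; ACGTG preceded only the second of them, at 68 and 55 bases. Over the listed genes as a whole, ACGTG was found for 23.8% of those lower in the PB-Tfcp2l1ΔCP2 library and 28.5% of those higher. GCGTG went the other way, at 49.2% and 38.5%, and either motif was found for 72 of 126 lower and 65 of 130 higher genes with a sequence.

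**Figure D1:**
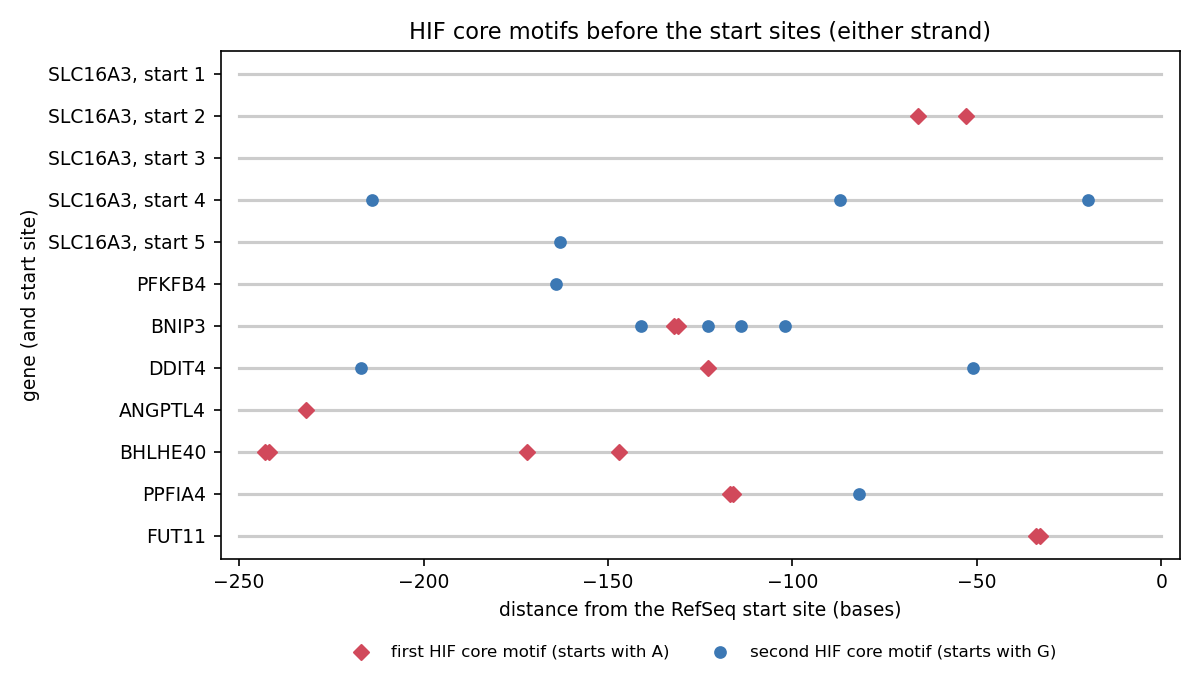
Positions of the HIF core motifs (diamonds ACGTG, circles GCGTG, either strand) in the 250 bases before each RefSeq start of the 8 genes with a sequence, with the start at 0 on the horizontal axis. ACGTG is present before at least 1 start of every gene except PFKFB4, and 2 of the 5 SLC16A3 starts have neither motif.

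All 9 genes had lower expression values in the PB-Tfcp2l1ΔCP2 library. The ratios of the values ran from 2.25 in FUT11 to 4.71 in STC1, with a median of 3.36. The unit of the values is not named in the table, and reads recovered from the deposited p-values, divided by gene length, follow them, so levels are compared between genes on that scale per length. Summed over the 9 genes the value went from 164 to 48.0, 3.43-fold lower, and without DDIT4 the sum was 2.95-fold lower. Every row of the table differs at least 2-fold, so 2-fold is fixed by the listing: 9 of 9 genes were past it downward, as were 52.7% of all rows. FUT11 was the gene nearest to that limit. Fewer cells of a type and less RNA per cell cannot be told apart in such bulk RNA.

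The genes of glycolysis and lactate export were PFKFB4 and SLC16A3. SLC16A3 (Gene ID 9123) encodes the monocarboxylate transporter that carries lactate out of glycolytic cells. Its expression value was 18.4 in the PB control library and 5.46 in the PB-Tfcp2l1ΔCP2 library. The recovered reads were 864 and 263, or 3.36-fold lower after the ratio of library totals, with a 95% counting interval of 2.92 to 3.87. Such intervals cover counting error only, not the spread between cultures. PFKFB4 (Gene ID 5210) encodes a bifunctional enzyme that sets the level of fructose-2,6-bisphosphate, the activator of phosphofructokinase. Its value was 7.54 in the PB control and 3.30 in the PB-Tfcp2l1ΔCP2 library. By reads, 772 against 311, the difference was 2.54-fold (2.22 to 2.91), larger than the 2.28-fold of the values. SLC16A3 thus had the higher level of the pair in both libraries and the larger fold, and their counting intervals did not overlap. The remaining 27 genes of a list of 29 for glucose uptake, glycolysis and lactate, from the glucose transporters to lactate dehydrogenase, had no row and were not analysed here. In RefSeq, PFKFB4 overlaps UCN2 and a microRNA gene, and SLC16A3 overlaps CSNK1D and a microRNA gene. How reads were divided there is uncertain, since no strand setting is given in the sources used here.

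Among 13 further members of the SLC16 family, 2 were listed and both were lower. SLC16A9, which encodes a carnitine transporter, went from 6.15 to 1.5, 4.07-fold lower by reads (3.38 to 4.92). SLC16A14 went from 0.80 to 0.27, 3.0-fold lower (1.93 to 4.78). No other paralog of the 9 genes was listed: over the families of all 9, 41 paralogs were looked up and these 2 were found. For scale, 256 of the 27305 genes in the promoter set were listed.

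BNIP3 (Gene ID 664) encodes a receptor on the outer mitochondrial membrane that recruits the autophagy machinery. Its value was 40.2 in the PB control library and 15.9 in the PB-Tfcp2l1ΔCP2 library, from 1509 and 609 reads. The fold by reads was 2.53 (2.31 to 2.79), the narrowest relative interval among the genes with reads. BNIP3 was second to DDIT4 in the control and first of the 9 in the other library. RefSeq lists 46 BNIP3 pseudogenes and an overlap with PPP2R2D, so that the assignment of reads to BNIP3 is uncertain. Of the other 8 genes in the mitophagy list, BNIP3L and PINK1 among them, none was listed.

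DDIT4 (Gene ID 54541), also called REDD1, encodes an inhibitor of mTORC1 that acts through the TSC complex. It had the highest value of the 9 in the PB control library, 63.5, and was the third of all 425 listed genes there. In the PB-Tfcp2l1ΔCP2 library its value was 13.7, below BNIP3, and its place among the listed genes was 21. The ratio of values was 4.63. Its deposited p-value was too small to give reads. From the value, the length and the usual number of reads per unit, about 2577 and 570 reads were estimated, which would give an interval of 4.22 to 5.07. DDIT4 made up 42.7% of the summed drop of the 9 genes, and BNIP3 another 20.8%. None of the other 10 genes in the list of mTORC1 inhibitors and sensors was listed. DDIT4 also belongs to a glucocorticoid list and an integrated stress response list. Of the other 7 glucocorticoid genes only KLF9, a transcription factor gene, was listed (0.68 to 0.25, 2.74-fold lower by reads, 1.79 to 4.28). Of the other 13 stress response genes only SLC7A11, the cystine transporter gene, was listed, and it was higher (2.07 to 4.34).

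**Figure D2:**
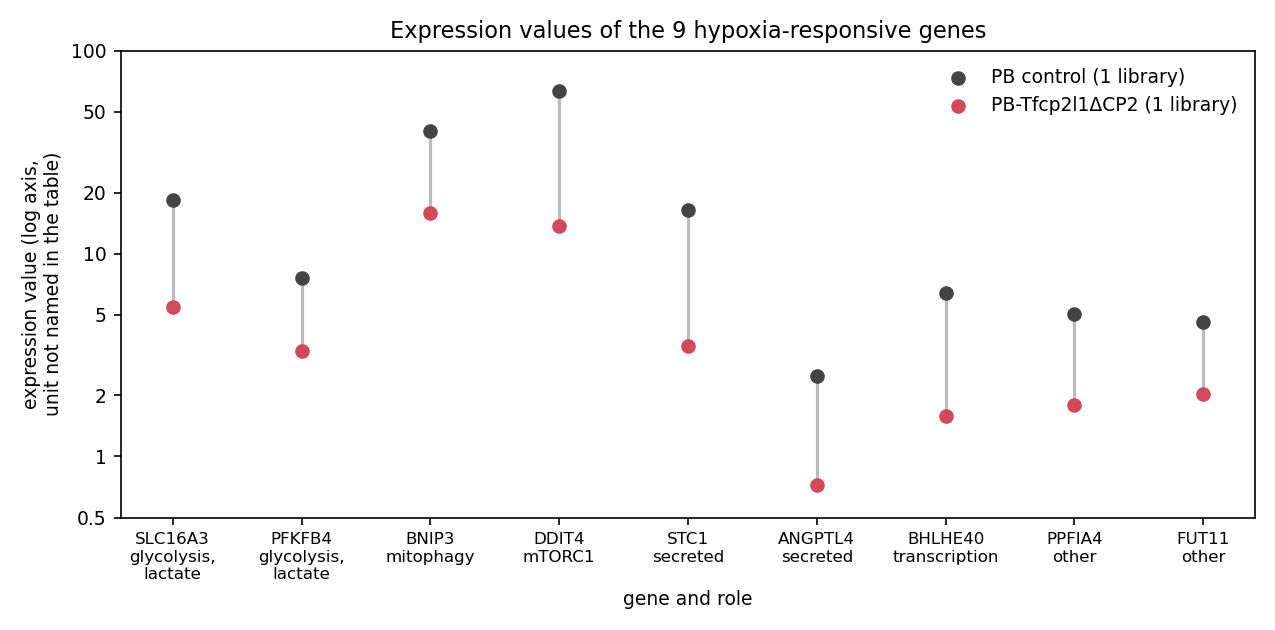
Expression values (log axis, unit not named in the table) of the 9 genes in the 1 PB control library and the 1 PB-Tfcp2l1ΔCP2 library, grouped by role. Every gene is lower in the PB-Tfcp2l1ΔCP2 library, and DDIT4, highest in the control at 63.5, is below BNIP3 in the other library (13.7 against 15.9).

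The secreted factors were STC1 and ANGPTL4. STC1 (Gene ID 6781), stanniocalcin-1, is a glycoprotein hormone of calcium and phosphate balance. It had the largest ratio of the 9 genes, with a value of 16.5 in the PB control and 3.49 in the PB-Tfcp2l1ΔCP2 library. Its reads were 1490 and 323, 4.72-fold lower (4.18 to 5.34). ANGPTL4 (Gene ID 51129) encodes a secreted inhibitor of lipoprotein lipase and is also a known target of lipid-sensing PPAR receptors. It had the lowest value of the 9 in both libraries, 2.50 and 0.72. With 108 and 31 reads its fold of 3.56 had the widest interval (2.37 to 5.50), which overlapped those of all 7 other genes with reads. None of the other 7 PPAR targets, PDK4, PLIN2 and CPT1A among them, was listed.

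Of the other 10 genes in the secreted hypoxia list, 1 was listed, PDGFB, a growth factor gene, and it was higher in the PB-Tfcp2l1ΔCP2 library, opposite to STC1 and ANGPTL4. It went from 0.26 to 0.58, 2.23-fold higher by value. By its 18 and 51 reads it was 2.77-fold higher (1.59 to 5.04). VEGFA, ADM and STC2 were among those with no row.

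BHLHE40 (Gene ID 8553), also called DEC1, encodes a basic helix-loop-helix repressor of the circadian clock. Its value was 6.36 in the PB control library and 1.58 in the PB-Tfcp2l1ΔCP2 library. The reads were 450 and 114, 4.04-fold lower (3.28 to 5.0). Its level went from sixth of the 9 in the control to the eighth, below FUT11 and PPFIA4, which had been below it. None of the other 11 clock genes, among them PER1, NR1D1 and its own paralog BHLHE41, was listed. The other 9 genes of the list of hypoxia targets in transcription and chromatin, KDM3A and MXI1 among them, had no row either. RefSeq places the antisense gene BHLHE40-AS1 over it.

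PPFIA4 and FUT11 are known hypoxia-induced genes outside these roles. PPFIA4 (Gene ID 8497) encodes liprin-alpha-4, a scaffold protein of the liprin family. Its value was 5.03 in the PB control and 1.80 in the PB-Tfcp2l1ΔCP2 library. By reads, 1227 against 408, it was 3.08-fold lower (2.75 to 3.45), above the 2.79 of the values. RefSeq places a long non-coding RNA gene over part of it. FUT11 (Gene ID 170384) encodes a fucosyltransferase. Its value was 4.58 in the PB control and 2.04 in the PB-Tfcp2l1ΔCP2 library, with 218 and 98 reads. Its fold of 2.28 had an interval of 1.78 to 2.92, the only 1 among the 8 genes with reads that reached below 2-fold. The other 18 genes of the list of further hypoxia targets, CA9, NDRG1 and P4HA1 among them, had no row, nor had any of the 11 genes of oxygen sensing, which include HIF1A, EGLN1 and VHL.

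**Figure D3:**
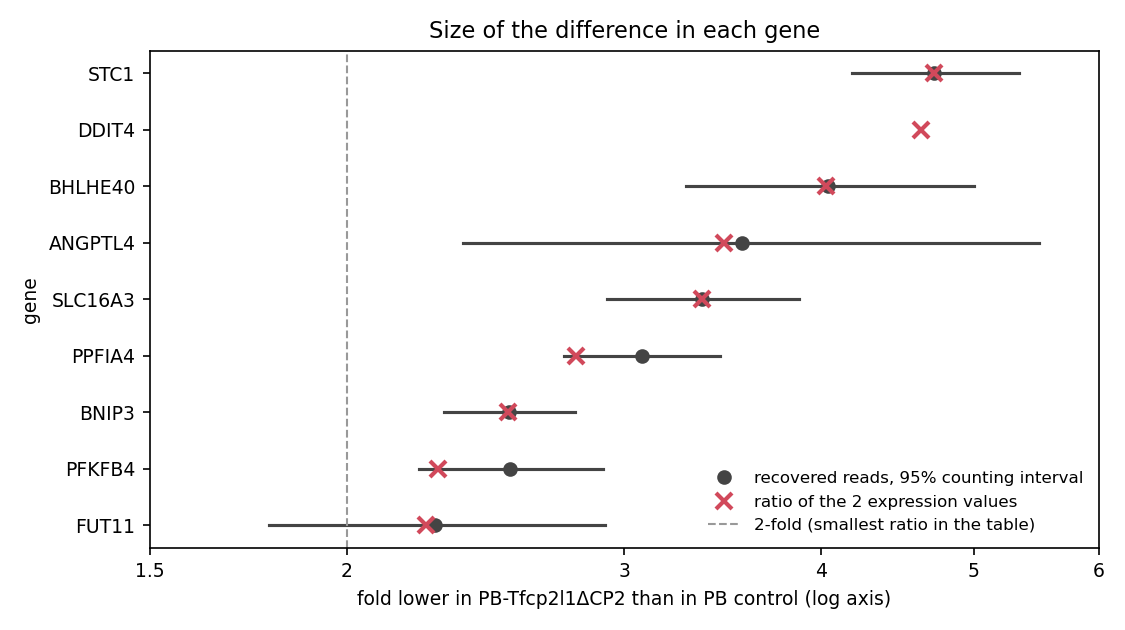
Fold by which each gene was lower in the PB-Tfcp2l1ΔCP2 library (log axis). Points with bars are recovered reads with 95% counting intervals, crosses are ratios of the expression values, and the dashed line is the 2-fold limit of the table; FUT11 has the only bar that crosses it, DDIT4 has no recovered reads, and PFKFB4 and PPFIA4 have crosses to the left of their points.

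In the order of the folds by reads, STC1 was followed by BHLHE40, ANGPTL4, SLC16A3, PPFIA4, PFKFB4, BNIP3 and FUT11. All 7 neighbouring pairs in this order had overlapping intervals. Overlap alone does not place a step within counting error, and no direct comparison of neighbours was made. Of the 28 pairs, 11 had intervals that did not overlap. STC1 lay apart from SLC16A3, PPFIA4, PFKFB4, BNIP3 and FUT11, and BHLHE40 and SLC16A3 each lay apart from PFKFB4, BNIP3 and FUT11. The largest and smallest folds thus differed by more than the counting intervals.

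The order of levels was nearly kept between the libraries. In the control it ran DDIT4, BNIP3, SLC16A3, STC1, PFKFB4, BHLHE40, PPFIA4, FUT11 and ANGPTL4. In the PB-Tfcp2l1ΔCP2 library BNIP3 and DDIT4 changed places, FUT11 moved to the sixth place and BHLHE40 to the eighth, while SLC16A3, STC1, PFKFB4, PPFIA4 and ANGPTL4 held theirs. The level and the fold did not go together in a simple way: the highest gene, DDIT4, had a ratio of 4.63, BNIP3 after it 2.53, and the lowest, ANGPTL4, 3.47.

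On the log2(value + 1) scale, where low genes show smaller differences, the 9 differences ran from -2.13 in DDIT4 to -0.88 in FUT11. Their median was -1.29, beside -0.61 over the 291 listed genes that reach a value of 1 in at least 1 library and -0.85 over the 170 of these that were lower. ANGPTL4 reached a value of 1 only in the PB control library. On this scale 7 of the 9 were at least 2-fold lower, against 16.8% of the 291 genes, or 49 of the 170 that were lower. The number among the 9 was 4 with a pseudocount of 5 or with values scaled to the listed total. It was 2 with median-of-ratios scaling, where the median of the 9 was -0.43. ANGPTL4, at -1.02, was just past this limit and PFKFB4, at -0.99, just short of it. By reads, 7 of the 8 genes had an interval wholly beyond 2-fold lower. The share was 17.7% of the 407 rows with at least 1 recovered read in the PB-Tfcp2l1ΔCP2 library. Rows with no read there were left out, so this share may be understated. At least 4-fold lower by value were STC1, DDIT4 and BHLHE40, 3 of 9, against 12.2% of all rows, or 52 of the 224 lower rows. The genes were chosen on these values, so the shares describe the choice. They were also well expressed among the listed genes: the median control value was 7.54, against 2.16 for all 224 lower rows, and they were 4.02% of the lower rows but 14.4% of the summed drop in value.

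**Figure D4:**
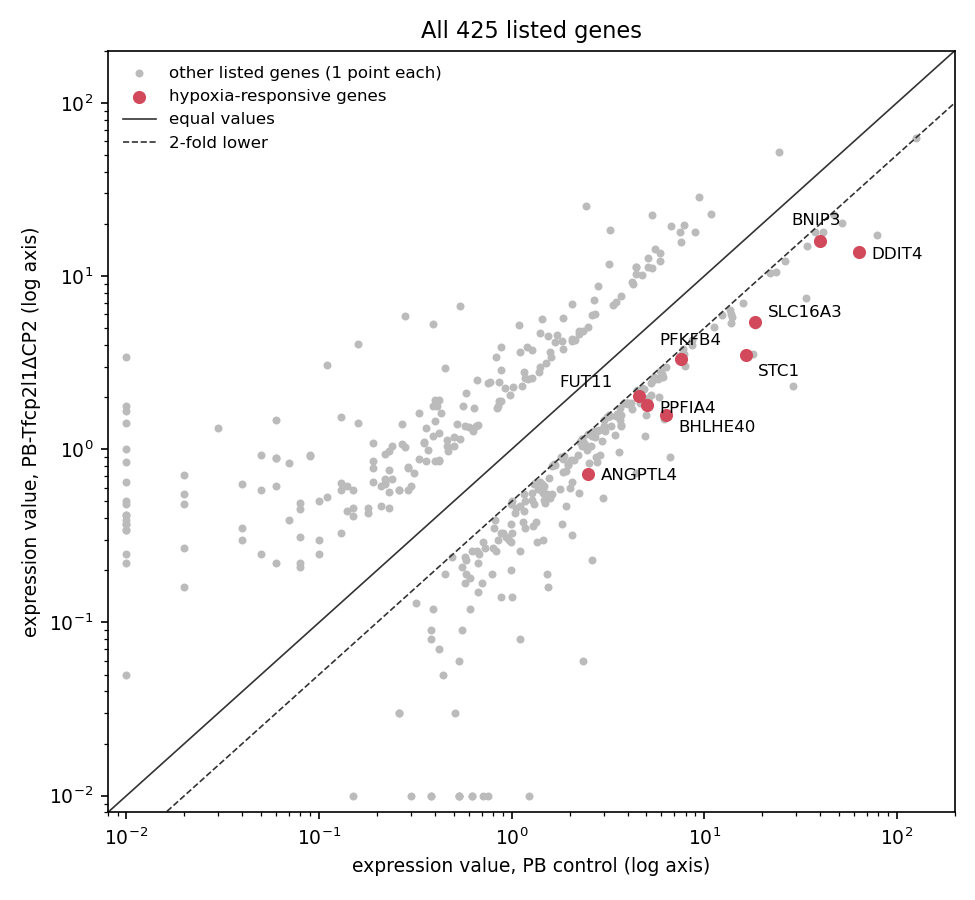
Expression values of all 425 listed genes in the PB control library (horizontal, log axis) and the PB-Tfcp2l1ΔCP2 library (vertical, log axis), with the 9 hypoxia-responsive genes labelled and lines for equal values and 2-fold lower. The 9 genes lie below the 2-fold line, with FUT11 and PFKFB4 near it and STC1, DDIT4 and BHLHE40 farthest below; no listed gene lies between 2-fold lower and 2-fold higher.

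Across 7 lists for oxygen sensing, glucose and lactate, mitophagy, mTORC1 and hypoxia targets, 101 genes in all, 10 were listed: the 9 described here, all lower, and PDGFB, which was higher. The lists were drawn up with the 9 genes in them, so only the count outside them, 1 of 92, was free to vary. Among the 27305 genes in the promoter set, 256 were listed. A list of 4 arrestin genes, whose first member TXNIP is known to respond to glucose, had 1 listed gene, ARRDC3, at 6.63 in the control and 0.90 in the other library (7.37-fold lower by reads, 5.92 to 9.27).

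Of the annotation terms deposited with the rows, only a few were looked up, and none of these was attached to more than 3 of the 9 genes. The term response to hypoxia was attached to 2 rows, STC1 and the endoderm factor gene GATA6, which was higher. The broader term response to stress was attached to 14 of the 296 rows with any biological process term, 7 higher and 7 lower. It was attached to 3 of the 8 genes described here with such a term, DDIT4, BNIP3 and ANGPTL4. PFKFB4 was the only row with the term glucose catabolic process, and PPFIA4 carried no biological process term. Position was examined only next to each gene: for each of the 9, none of the 2 nearest RefSeq genes on either side, and no overlapping gene, was listed. The chromosomes were 10 for BNIP3, DDIT4 and FUT11, 3 for PFKFB4 and BHLHE40, and 1, 8, 17 and 19 for PPFIA4, STC1, SLC16A3 and ANGPTL4.

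The genes most like the 9 were taken as those nearest to their medians in log2 PB control value and log2 ratio, by Euclidean distance over these 2 coordinates. They were DPEP1, SLC16A9 and SLC17A9. DPEP1, a dipeptidase gene, went from 7.91 to 3.02 (distance 0.37). SLC16A9 (distance 0.41) is the SLC16 family member given above. SLC17A9, a vesicular nucleotide transporter gene, went from 7.82 to 3.54 (distance 0.61). With 1 library per group this likeness rests on 2 numbers per gene.

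Facts of the whole comparison bear on all 9 genes. TFCP2L1 had no row among those used here, so the construct was not checked from the values. Of 13 markers of embryonic stem cells 1 was listed, ZFP42, at 5.08 and 1.99; the rest were not analysed here, so the labelled cell type was not checked by their levels. Some markers of other cell types were also listed. Every listed gene differs at least 2-fold, so only their direction was free to vary, and the markers without a row were not analysed. Of 8 primitive streak and mesendoderm markers 5 were listed, with a summed value of 5.46 in the PB control and 37.8 in the PB-Tfcp2l1ΔCP2 library. All 5 were higher, but CER1 alone, at 2.43 and 25.43, made up most of the second sum. Of 7 endoderm markers 4 were listed, summed at 0.15 and 2.42, with FOXA2 at the lowest value of the table, 0.01, in the control. These values are near the floor: SOX17, FOXA2, GATA6 and FOXQ1 had 3, 0, 5 and 1 recovered reads in the control. In the PB-Tfcp2l1ΔCP2 library they had 49, 21, 55 and 30. The listed neuroectoderm marker (1 of 6, NCAM1) and fibroblast marker (1 of 7, COL1A1) went from 2.32 to 1.07 and from 41.6 to 17.97, and none of 6 trophoblast markers was listed. The part of these cell type markers in the values of the 9 genes was not tested.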

How the data were processed

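RNA of 2 cultures was sequenced on the BGISEQ-500 platform, per the labels' protocols. Bowtie 0.12.2 and the build hg19 appear, with no role, per the submitters' processing notes. Which counter, annotation and test were used is not given in the sources used here. The single table is the authors' deposited comparison. The authors' expression values, deposited with no named unit, are treated as a signal; none is negative and the lowest is 0.01. The deposited log2 fold change is the log2 ratio of the 2 values, without a pseudocount. The p-value and FDR columns, also the authors', set the reads of 1 library against those of the other; the largest FDR is 0.000984 and the smallest ratio 2-fold, so only called genes are listed. Per the file headers, the authors also give the length of each gene. The value column headed PB_Tfcp2l1CP2, with no delta in the header, was matched to the PB-Tfcp2l1ΔCP2 library, the only sample title with Tfcp2l1.

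The main comparison was the difference of log2(value + 1), called at 2-fold, over genes that reach a value of 1 in at least 1 library. With 1 library per group there was no test. Whole reads were recovered by inverting the test of Audic and Claverie (2-sided, both tails counted inclusively). The ratio of library totals was 1.02 (PB-Tfcp2l1ΔCP2 over PB control), and for each row the pair was sought that gives its p-value to a relative tolerance of 5e-06 within 10 to 45 reads per unit of value and kilobase. That the authors used this formula is inferred. Of the 425 rows, 420 gave 1 pair (98.8%), 1 gave several, and 4 with p-values too small were not searched. Median reads per row were 78 and 72. Intervals are exact conditional binomial (Clopper-Pearson) 95% intervals and treat reads as independent. In rows with 200 or more reads in both libraries, the fold by reads and the ratio of values differed by at most 5% in 55 of 60; PFKFB4 and PPFIA4 were among the exceptions. The recovery was tested on simulated data made with the same formula and library ratio. That covers the search only, and cannot show which formula the authors used.

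Genes were matched to RefSeq (GRCh38.p14) by Gene ID, 368 of 368 with a symbol; no gene coordinates are given because its build differs from hg19. Promoter coordinates are those of the RefSeq sequence. The members, gene lists and motifs were chosen with earlier results of these data known. The named genes are the 9 members, listed genes of each list, and the 3 genes nearest to the members' medians; the streak and endoderm markers are given mainly as sums. A result of 1 further item is not reported here. Scripts used Python 3.11.15, numpy 2.4.6, scipy 1.17.1 and pandas 2.3.3.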

Additional observations from a re-analysis of the deposited data

How the results depend on the processing

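No paired analysis was possible because there was only 1 library per group, and for the same reason no library could be left out. All 9 genes stayed lower under every scaling, pseudocount and filter run that kept them (7 of 7 that reach a value of 5, 8 of 8 by recovered reads). This is no check of the direction. A shared pseudocount or a filter cannot reverse a difference. The smallest log2 ratio of the 9, -1.17 in FUT11, is larger in size than the larger scaling shift, 1.04. The number at least 2-fold lower (7 of 9) was 4 with a pseudocount of 5, 4 with values scaled to the listed total, 2 with median-of-ratios scaling and 2 at 3-fold. It was 9 with a pseudocount of 0.5, without one, and at 1.5-fold. The median difference of the 9 (-1.29) was -0.79 with a pseudocount of 5, -1.75 without one, -1.51 over the 7 genes that reach a value of 5, -0.96 scaled to the listed total, -0.43 with median-of-ratios scaling and -1.68 by recovered reads. All listed genes at least 2-fold lower (49) were 87, 11 and 170 with pseudocounts of 0.5, 5 and none, 32 among genes that reach a value of 5, 20 and 9 with the listed-total and median-of-ratios scalings, 154 at 1.5-fold, 10 at 3-fold and 162 by recovered reads. Log2 ratios move up by 0.34 and 1.04 under these scalings; both rest on called genes only, with none within 2-fold, so they are no check of the depths. Under median-of-ratios scaling the 9 differences ran from -1.13 to -0.096. Depth limits ANGPTL4 and FUT11 most, with 31 and 98 reads in the PB-Tfcp2l1ΔCP2 library.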
